A study of Rattus norvegicus with 20 samples.

Results

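The 10 genes described here encode carriers of the plasma membrane, which between them move histidine, other large or neutral amino acids, and cationic amino acids. The rule takes them by name and uses no measured value, although earlier results of these data were known when it was written, and all 10 were found among the 15503 genes of the deposited table by its gene name column. RNA was sequenced from cultures labelled as neonatal rat cardiomyocytes, the muscle cells of the newborn heart, kept for 72 h under 1 of 4 conditions with 5 libraries each. The PBS group received phosphate-buffered saline, and the histidine group received 100 nM histidine. The doxorubicin group received 1 µM doxorubicin, an anthracycline that poisons topoisomerase II and is toxic to heart muscle, and the last group received both compounds. The series' design text states that the cardiac effect of histidine was the question. Nothing in the labels says that the 5 libraries of a group came from separate cultures or animals, so the p-values measure the spread between these libraries, which may be technical.

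Histidine enters cells by several routes. The L-type carriers exchange large neutral amino acids without sodium: Slc7a5 (LAT1) and Slc7a8 (LAT2) are the transporting light chains, and each is carried to the membrane by the heavy chain Slc3a2 (4F2hc, CD98). The sodium-coupled carriers Slc38a1, Slc38a2 and Slc38a3 (SNAT1, SNAT2 and SNAT3) take up glutamine, histidine and other neutral amino acids. Slc43a1 and Slc43a2 (LAT3 and LAT4) let branched-chain amino acids, phenylalanine and methionine pass without a heavy chain. Slc1a5 (ASCT2) is a sodium-dependent exchanger of neutral amino acids such as glutamine, and Slc7a1 (CAT1) carries the cationic amino acids arginine and lysine.

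Promoter windows are shown because several genes of this class are known targets of ATF4, which answers amino acid shortage, and of MYC. RefSeq (assembly GRCr8) gave 9 windows for 8 of the 10 genes, each from 250 bases before to 50 bases after a transcription start. Slc38a3 and Slc1a5 had no window and were not searched. Both strands were searched for the ATF4 composite motif TGATGNAA (TTNCATCA on the other strand) and for the E-box CACGTG, which reads the same on both strands. No window of these genes held both motifs, and those of Slc7a8, Slc3a2, Slc38a2 and Slc43a2 held neither. The first was in 2 of the 9 windows and in 3.98% of 33469 promoters. The E-box was in 2 of the 9 and in 6.42% of all. The matches are printed in lower case, read along the gene's strand, with the motif in capitals. The Slc7a1 stretch is cut short after its motif, at the distance given below as that to the start. Windows that reach 50 bases past the start would not end there. The distances printed below may therefore count to the window's end, and this was not settled. A match describes letters and is neither a shown binding site nor a cause.
Slc38a1, chr7:129681510-129681569, minus strand, motif starting 142 bases before the start: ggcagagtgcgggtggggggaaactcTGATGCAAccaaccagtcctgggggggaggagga
Slc7a1, chr12:11664432-11664487, plus strand, motif starting 30 bases before the start: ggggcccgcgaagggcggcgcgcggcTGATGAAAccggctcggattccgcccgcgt
Slc43a1, chr3:90327205-90327262, plus strand, motif starting 91 bases before the start: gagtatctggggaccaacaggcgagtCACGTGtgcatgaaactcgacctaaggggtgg
Slc7a5, chr19:66872560-66872617, minus strand, motif starting 179 bases before the start: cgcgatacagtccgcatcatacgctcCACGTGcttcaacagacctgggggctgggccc

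With doxorubicin, 7 of the 10 genes fell, 2 rose and 1 did not pass the test (edgeR quasi-likelihood test, adjusted p under 0.05 over all 15449 genes tested). Slc7a8 fell the most and Slc38a3 rose the most. Doxorubicin replicate 4 stood apart from the other libraries, and without it 7 fell and 1 rose. Among all genes tested, 21.5% were called lower and 21.7% higher in the same comparison. The median log2 fold change of the 10 was -0.69, beside 0.05 for all genes. The 5 libraries of each group did not overlap for 5 of the genes that fell and for Slc38a3, against 17.5% of all genes lower and 13.6% higher without overlap. Histidine at 100 nM called 0 of the 10 genes, whether given alone or beside doxorubicin.

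**Figure D1:**
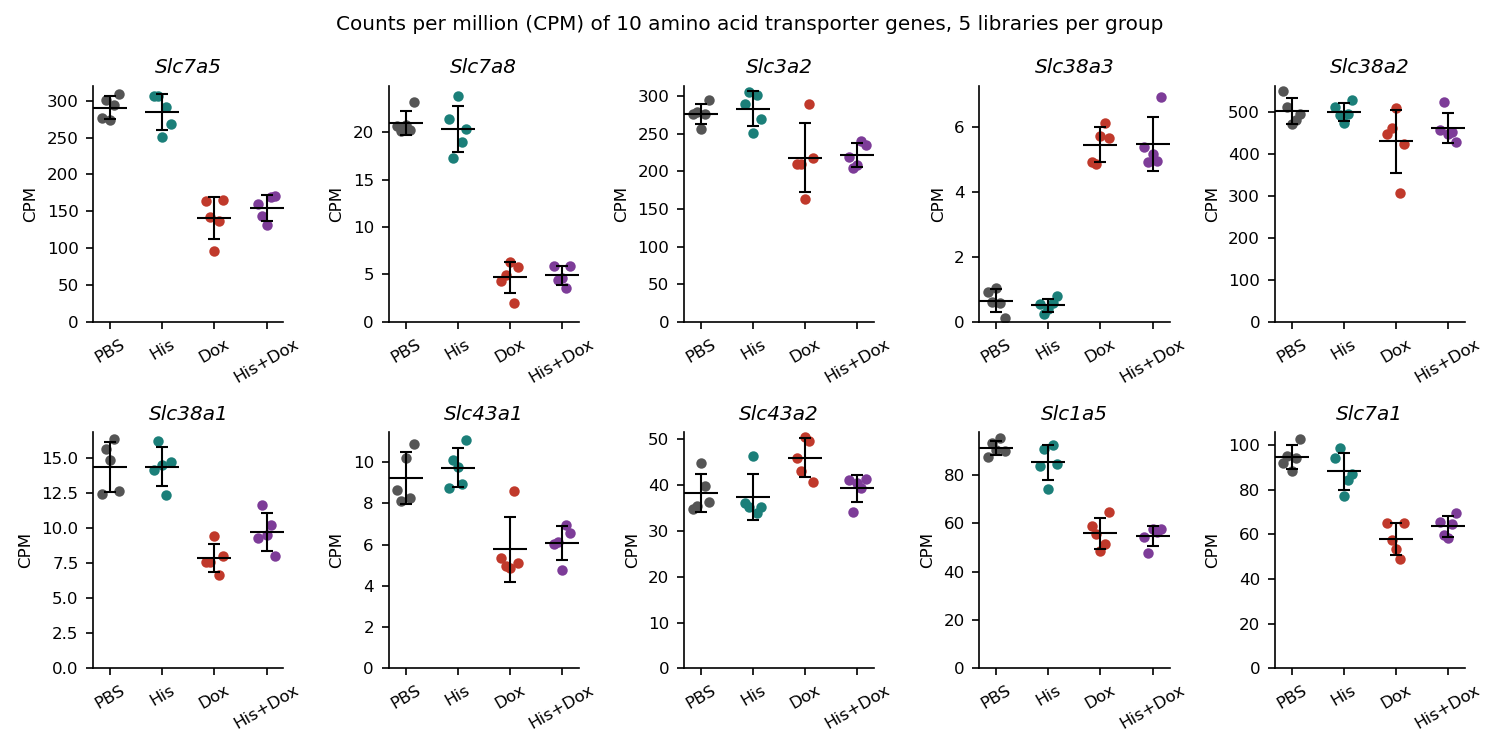
Scaled counts (CPM, y axis from 0) of each of the 10 genes in every library, by group on the x axis. Points are libraries, long black dashes are group means and bars are the SD of 5 libraries; Slc7a5 lies between 274 and 309 with PBS and between 95.6 and 165 with doxorubicin.

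Levels are given as CPM, the count of a gene per 1000000 counts of the scaled library, and library totals ran from 53246205 to 83624651 counts. Of 7 lists of cell type markers, the cardiomyocyte markers summed to 957 to 1117 CPM with PBS, 0.102% of counts, and the fibroblast markers to 74642 to 82110 CPM, 7.98%. Most of the fibroblast sum was collagen RNA: with PBS, Col1a1, Col1a2 and Col3a1 had means of 42013, 17538 and 18302 CPM. The other fibroblast markers ran from 8.72 (Tcf21) to 1480 CPM (Postn), so the sum does not measure the share of fibroblasts. The cardiomyocyte and fibroblast sums go against a culture of cardiomyocytes alone, and that name is the label's. No marker was at 0 reads in any whole group. With doxorubicin, 13 of 15 cardiomyocyte markers fell and their sum was 159 to 203 CPM. All 11 macrophage and leukocyte markers fell, from a sum of 2126 to 2203 CPM to 170 to 256 CPM, and all 10 markers of dividing cells fell, from 733 to 770 CPM to 57.8 to 119 CPM. Smooth muscle and pericyte markers fell in 8 of 9 cases. Among all genes tested, 21.5% were called lower and 21.7% higher. The remaining lists were mixed: 4 fibroblast markers fell and 2 rose of 10 (sum 32107 to 56389 CPM with doxorubicin), 4 endothelial fell and 3 rose of 8, and 1 epicardial fell and 3 rose of 7. In bulk RNA, fewer cells of a type and less RNA per cell cannot be told apart, and the part of these shifts in the transporter values was not tested. Doxorubicin replicate 4 was far from the other libraries on the second principal component (107.9, the others between -18.9 and 9.0). Values without it are therefore given for Slc7a8, Slc3a2, Slc38a2, Slc43a1 and Slc43a2, whose overlap, call or size of change it moved. Without it, 14 cardiomyocyte markers and 7 smooth muscle and pericyte markers fell, and 1 fibroblast and 2 endothelial markers rose, while the other marker counts were as given.

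Among the light chains, Slc7a5 (ENSRNOG00000018824, mRatBN7.2 chr19:49935220-49963823, minus strand) was at 276, 301, 274, 294 and 309 CPM in the PBS libraries 1 to 5. The histidine libraries held 306, 307, 251, 292 and 268 CPM, the doxorubicin libraries 164, 142, 95.6, 137 and 165 CPM, and the libraries with both 160, 143, 131, 170 and 171 CPM. All 10 libraries with doxorubicin lay below all 10 without it. Slc7a5 fell 2.07-fold with doxorubicin (log2 fold change -1.05 ± 0.12 SE, 95% interval -1.3 to -0.81, adjusted p = 4.08e-07, n = 5 per group, edgeR). Its promoter window held an E-box.

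Slc7a8 (ENSRNOG00000014311, chr15:28183015-28242717, minus strand), the light chain with the broader range of substrates, was at 20.7, 20.1, 20.8, 20.2 and 23.2 CPM with PBS. It was at 21.4, 17.3, 23.8, 19 and 20.3 CPM with histidine, at 4.33, 4.97, 6.29, 2.04 and 5.8 CPM with doxorubicin, and at 5.94, 4.43, 4.65, 3.59 and 5.88 CPM with both. The highest library with doxorubicin was far below the lowest without it, and doxorubicin replicate 4 was the lowest of all 20. The gene fell 4.49-fold with doxorubicin (log2 fold change -2.17 ± 0.21, adjusted p = 7.17e-08, edgeR, n = 5 per group). Without doxorubicin replicate 4 its log2 fold change was -1.97 (adjusted p = 1.32e-09, edgeR). The doxorubicin values rested on 154 to 449 reads per library and the PBS values on 1296 to 1570.

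Slc3a2 (ENSRNOG00000018487, chr1:205604468-205618931, minus strand), the heavy chain, was at 276, 279, 257, 277 and 295 CPM with PBS. It was at 290, 306, 251, 301 and 270 CPM with histidine, at 210, 210, 164, 290 and 218 CPM with doxorubicin, and at 219, 205, 209, 241 and 235 CPM with both. Of the doxorubicin libraries, only replicate 4 reached the PBS range, so the groups overlapped through that library. The gene fell 1.27-fold (log2 fold change -0.34 ± 0.10, adjusted p = 0.0126, edgeR, n = 5 per group), and by 0.46 on the log2 scale without replicate 4 (adjusted p = 8.25e-05). With only the PBS and doxorubicin libraries in the fit, the call was lost (adjusted p = 0.0551).

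The light chain fell further than its heavy chain. The ratio of Slc7a5 to Slc3a2 in FPKM, which is scaled to gene length, was 0.602 ± 0.0176 (SD, n = 5) with PBS and 0.374 ± 0.0729 with doxorubicin. Every PBS library was at 0.573 or above, and the doxorubicin libraries were at 0.446, 0.385, 0.334, 0.27 and 0.432. The log2 difference was -0.71 (p = 0.00794 by a two-sided exact permutation test, the smallest that 5 against 5 allows, 0.0159 after adjustment over 12 ratio tests). Between histidine (0.574 ± 0.0183) and both (0.4 ± 0.0244) it was -0.52, with the same exact permutation p and adjusted value.

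Slc7a8 also fell further than Slc7a5. Their FPKM ratio was 0.061 ± 0.00365 with PBS and 0.0299 ± 0.0159 with doxorubicin, a log2 difference of -1.19 (exact permutation p = 0.00794, adjusted 0.0159, n = 5 per group). The doxorubicin libraries spread from 0.0126 in replicate 4 to 0.0554 in replicate 3, and the latter was just below the lowest PBS library at 0.0562. With both compounds the ratio was 0.0268 ± 0.00541, beside 0.0611 ± 0.0122 with histidine, again a log2 difference of -1.19.

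**Figure D2:**
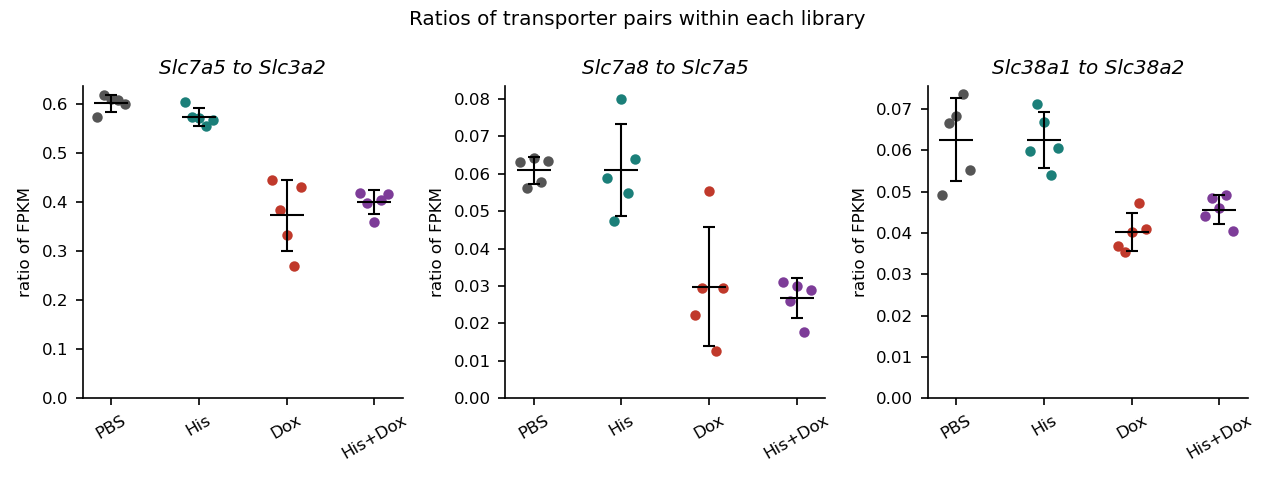
Ratio of FPKM values of 3 gene pairs in every library (y axis from 0), by group; points are libraries, dashes are means and bars are the SD of 5 libraries. In each pair the means with doxorubicin lie below those without it, and the Slc7a8 to Slc7a5 ratio of doxorubicin replicate 3 (0.0554) lies just below the lowest PBS library (0.0562).

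Among the sodium-coupled carriers, Slc38a3 (ENSRNOG00000016827, chr8:108323894-108339988, minus strand) was at 0.927, 0.601, 1.04, 0.583 and 0.127 CPM with PBS. It was at 0.558, 0.248, 0.381, 0.579 and 0.787 CPM with histidine, at 4.92, 4.88, 5.73, 6.12 and 5.67 CPM with doxorubicin, and at 5.4, 4.94, 5.18, 4.95 and 6.93 CPM with both. The groups with and without doxorubicin were far apart, with 8 to 78 reads per PBS library and 273 to 462 per doxorubicin library. Slc38a3 rose 8.3-fold (log2 fold change 3.05 ± 0.35, 95% interval 2.33 to 3.78, adjusted p = 5.01e-07, edgeR, n = 5 per group). Its level stayed low among the carriers: 2.15 ± 0.18 FPKM (SD, n = 5) with doxorubicin, beside 88.8 ± 19.7 FPKM for Slc38a2.

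Slc38a1 (ENSRNOG00000005291, chr7:127738226-127802218, minus strand) was at 12.4, 15.6, 14.8, 16.3 and 12.6 CPM with PBS. It was at 14.1, 16.2, 14.5, 12.3 and 14.7 CPM with histidine, at 7.59, 7.55, 9.39, 6.65 and 7.99 CPM with doxorubicin, and at 9.27, 11.6, 9.46, 10.2 and 7.97 CPM with both. All libraries with doxorubicin were below all without it. The gene fell 1.83-fold (log2 fold change -0.87 ± 0.11, adjusted p = 3.53e-06, edgeR, n = 5 per group).

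Slc38a2 (ENSRNOG00000006305, chr7:127851267-127863436, minus strand), a gene induced by amino acid shortage, was at 551, 513, 473, 483 and 496 CPM with PBS and at 449, 464, 510, 307 and 425 CPM with doxorubicin. The groups overlapped through doxorubicin replicate 3, and replicate 4 was far below the rest. Its log2 fold change was -0.22 ± 0.10 (adjusted p = 0.0697, edgeR, n = 5 per group), with a 95% interval of -0.43 to -0.02. The value rested on those 2 libraries: without replicate 3 it was -0.29 (adjusted p = 0.0201), without replicate 4 it was -0.12 (adjusted p = 0.117), and without both it was -0.17 (adjusted p = 0.0325). Libraries with histidine held 474 to 529 CPM and those with both 429 to 525 CPM. Slc38a1 and Slc38a2 are neighbours on chromosome 7, and their FPKM ratio was 0.0626 ± 0.01 with PBS and 0.0402 ± 0.00461 with doxorubicin (log2 difference -0.63, exact permutation p = 0.00794, adjusted 0.0159, n = 5 per group).

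The Slc43 carriers, which need no heavy chain, were called in opposite directions. Slc43a1 (ENSRNOG00000008243, chr3:69920649-69946768, plus strand) was at 8.67, 8.1, 10.2, 8.26 and 10.9 CPM with PBS and at 5.35, 4.97, 4.89, 8.59 and 5.12 CPM with doxorubicin. Again doxorubicin replicate 4 alone reached the PBS range. The gene fell 1.59-fold (log2 fold change -0.67 ± 0.15, adjusted p = 0.00108, edgeR, n = 5 per group), and by 0.86 without that library (adjusted p = 4.55e-06).

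Slc43a2 (ENSRNOG00000003835, chr10:60376559-60418244, plus strand) was at 34.9, 35.4, 44.9, 39.8 and 36.4 CPM with PBS and at 46, 43.2, 50.6, 49.7 and 40.6 CPM with doxorubicin. The groups overlapped, with PBS replicate 3 above 2 of the doxorubicin libraries. The gene rose 1.2-fold (log2 fold change 0.27 ± 0.09, adjusted p = 0.0286, edgeR, n = 5 per group). This call was lost when any of PBS replicates 1, 2 and 5 or doxorubicin replicates 3 and 4 was left out, with adjusted p values of 0.0723, 0.0709, 0.063, 0.0719 and 0.0526 in that order.

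Slc1a5 (ENSRNOG00000015948, chr1:77456694-77470952, plus strand), the glutamine exchanger, was at 87.6, 93.2, 90.5, 95.3 and 89.9 CPM with PBS and at 58.9, 55.6, 48.7, 51.4 and 64.7 CPM with doxorubicin. It fell 1.63-fold (log2 fold change -0.71 ± 0.08, adjusted p = 3.74e-07, edgeR, n = 5 per group). The groups did not overlap, and the spread within each was small beside the gap.

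Slc7a1 (ENSRNOG00000000924, chr12:6628007-6703849, plus strand), the arginine and lysine carrier with the ATF4 composite motif in its promoter window, was at 91.9, 95, 88.6, 94.4 and 103 CPM with PBS. The doxorubicin libraries held 65.3, 57.7, 53.5, 49 and 65 CPM, all below the PBS libraries. Slc7a1 also fell 1.63-fold (log2 fold change -0.70 ± 0.08, adjusted p = 1.09e-06, edgeR, n = 5 per group).

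The order of the genes by level per length changed at its lower end. With PBS, mean FPKM ran from 128 for Slc3a2, 99.5 for Slc38a2 and 76.7 for Slc7a5 through 30.9 for Slc1a5, 12.6 for Slc7a1, 7.75 for Slc43a2, 6.19 for Slc38a1, 4.67 for Slc7a8 and 3.27 for Slc43a1 to 0.249 for Slc38a3. No neighbours in that order overlapped between libraries. With doxorubicin, Slc38a3 stood eighth at 2.15 FPKM and overlapped Slc43a1 at 2.1 FPKM, and Slc7a8 stood last at 1.09 FPKM. Slc3a2 (103 FPKM) overlapped Slc38a2 (88.8 FPKM), and Slc43a2 (9.63 FPKM) overlapped Slc7a1 (8.06 FPKM).

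With histidine, the order was that of PBS, and Slc43a2, Slc38a1 and Slc7a8 each overlapped the next. With both compounds, 3 pairs overlapped: Slc3a2 (108 FPKM) with Slc38a2 (96.6 FPKM), Slc7a1 (8.97 FPKM) with Slc43a2 (8.39 FPKM), and Slc43a1 (2.28 FPKM) with Slc38a3 (2.2 FPKM). The FPKM of the 10 genes summed to 369 ± 11.3 (SD, n = 5) with PBS, 374 ± 17.9 with histidine, 276 ± 15.6 with doxorubicin and 294 ± 9.34 with both. Slc7a5 made up 20.8% of that sum with PBS and 13.8% with doxorubicin, and Slc38a2 26.9% and 32.1%.

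**Figure D3:**
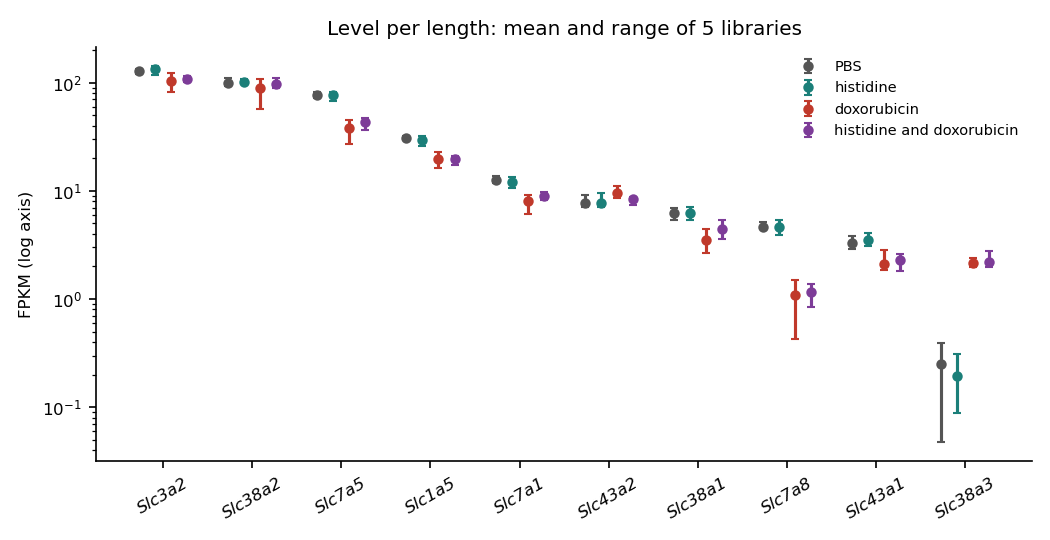
Mean FPKM (log y axis) of the 10 genes, ordered on the x axis by their PBS level, for the 4 groups; bars run from the lowest to the highest of 5 libraries. Slc38a3 moves from 0.249 FPKM with PBS to 2.15 with doxorubicin, and Slc7a8 from 4.67 to 1.09.

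In cultures given histidine, doxorubicin called 8 of the 10 genes: 7 were lower and Slc38a3 was higher. Of all genes, 20.3% were called lower and 19.9% higher. The groups did not overlap for all 8 of these, against 18.7% of all genes lower and 16.5% higher without overlap. This comparison shares no library with the one above.

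Slc7a8 fell by 2.05 on the log2 scale (adjusted p = 1.48e-07, edgeR, n = 5 per group), Slc7a5 by 0.88, Slc43a1 by 0.68, Slc1a5 by 0.64, Slc38a1 by 0.56, Slc7a1 by 0.47 and Slc3a2 by 0.36 (adjusted p = 0.0102). Slc38a3 rose by 3.42 (adjusted p = 1.67e-07, n = 5 per group). Slc38a2 was at -0.12 (adjusted p = 0.374) and Slc43a2 at 0.07 (adjusted p = 0.591), where 34 to 46.4 CPM with histidine faced 34.1 to 41.3 CPM with both. No call changed when any of the 10 libraries was left out.

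Histidine alone against PBS called 0 of the 10 genes and 0% of all genes by edgeR, and 0 of the 10 had an unadjusted p under 0.05, beside 312 of all genes. DESeq2 called 5 genes of the table and limma on log2(FPKM + 1) called 1, none of them among the 10. No member's groups were without overlap, and 0.841% of all genes were. The 95% interval of the log2 fold change was -0.27 to 0.21 for Slc7a5, -0.18 to 0.25 for Slc3a2 and -0.21 to 0.2 for Slc38a2. For the low Slc38a3 it ran from -1.09 to 0.37, and for Slc7a8 from -0.47 to 0.38.

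The ratio of Slc7a5 to Slc3a2 was 0.574 ± 0.0183 with histidine, beside 0.602 ± 0.0176 with PBS (exact permutation p = 0.0476, adjusted 0.0816, n = 5 per group). The histidine libraries held ratios of 0.604, 0.573, 0.572, 0.555 and 0.567, and the PBS libraries 0.573, 0.619, 0.61, 0.608 and 0.601. The first library of each group and PBS replicate 5 lay within the other group's range, and histidine replicate 2 equalled the lowest PBS library as printed (0.573). When the first library of either group was left out, the adjusted p was 0.0408 (exact permutation).

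Histidine added to doxorubicin also called 0 of the 10 genes and 0% of all genes. By edgeR 2 of the 10, and 1940 of all genes, had an unadjusted p under 0.05; DESeq2 called 22 genes of the table and limma 0, none of them members. No member's groups were without overlap, as 1.06% of all genes were. Slc38a1 was at 9.71 ± 1.35 CPM (SD, n = 5) with both and 7.83 ± 0.999 CPM with doxorubicin, a log2 difference of 0.31 ± 0.11 (adjusted p = 0.393). Slc43a2 was at 39.3 ± 2.98 and 46 ± 4.22 CPM, a log2 difference of -0.23 ± 0.09 (adjusted p = 0.393). The interval for Slc7a5 was -0.1 to 0.39 and for Slc7a8 -0.37 to 0.5.

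The interaction, which asks whether doxorubicin acted differently with histidine present, called 0 of the 10 genes and 0% of all genes by edgeR. Of the 10 genes, 0 had an unadjusted p under 0.05, as did 1060 of all genes; DESeq2 called 17 genes of the table and limma 0. Slc43a2, past the threshold with doxorubicin alone and not with histidine present, had an interaction of -0.19 ± 0.13 (adjusted p = 0.647). The largest interaction beside that of Slc38a3 (0.36 ± 0.47) was 0.31 ± 0.16 for Slc38a1 (adjusted p = 0.631).

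**Figure D4:**
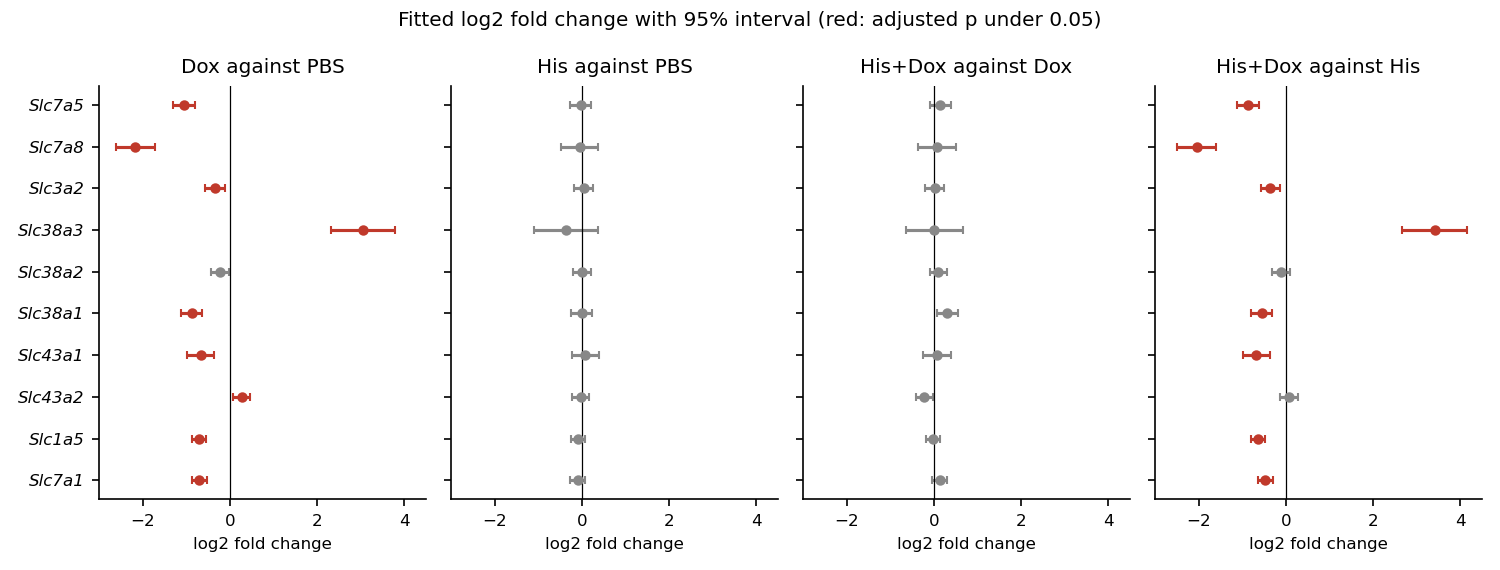
Log2 fold change (x axis) of each of the 10 genes in 4 comparisons, with the 95% interval as bars and genes with an adjusted p under 0.05 in red. In both comparisons of doxorubicin Slc7a8 lies farthest left (-2.17 and -2.05) and Slc38a3 farthest right (3.05 and 3.42), and in both comparisons of histidine all points are grey.

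Genes with the most similar profile over the 20 libraries were taken as those with the smallest root mean square difference of centred log2 CPM, among 9360 genes. The members' own root mean square deviations were 0.52 for Slc7a5, 0.24 for Slc3a2, 1.13 for Slc7a8 and 1.77 for Slc38a3. The differences are therefore not comparable between members. The nearest genes to Slc7a5 were Smtn (0.11), Tspan18 (0.11) and Swap70 (0.12). For Slc3a2 they were Acat1 (0.08), Atf4 (0.09) and Ilk (0.09). Slc7a8 was nearest to Ptafr (0.22), Ddx11 (0.24) and Cdt1 (0.24), and Slc38a3 to Pamr1 (0.54), Nqo1 (0.58) and Fam167a (0.59). Of these, Cdt1 licenses DNA replication, Ptafr is the receptor of platelet-activating factor, and Nqo1 is a quinone reductase. Ptafr went from 37.3 to 6.48 CPM and Cdt1 from 15.2 to 3.46 CPM with doxorubicin, as Slc7a8 went from 21 to 4.69 CPM.

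Of 29 genes listed as other amino acid transporters, 21 were measured, and with doxorubicin 10 fell and 4 rose (median log2 fold change -0.36). Of all genes tested, 21.5% were called lower and 21.7% higher. Slc7a3, a cationic carrier like Slc7a1, fell from 27 ± 2.34 to 5.16 ± 1.48 CPM (SD, n = 5), a log2 fold change of -2.38 ± 0.20 (adjusted p = 6.38e-09, edgeR). Slc7a6 and Slc7a7, light chains that also pair with Slc3a2 and exchange cationic for neutral amino acids, fell by 0.66 and 0.85. Slc38a10 rose by 0.38 (adjusted p = 1.84e-05).

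Slc6a15 and Slc6a17, neutral amino acid carriers known from brain, rose by 2.76 and 1.73 from means of 0.094 and 0.441 CPM. In cultures given histidine Slc6a15 did not pass the test (log2 fold change 1.13 ± 0.54, adjusted p = 0.105, edgeR), but it did by limma on log2(FPKM + 1) and on log2(FPKM + 0.1) (adjusted p = 0.0157 and 0.0136). The fourth that rose, Slc1a2, was chosen for mention after its values were seen. It had 0 reads in the PBS libraries and 46 with doxorubicin, at least 16.3-fold higher if the PBS group is set at 3 reads in all. Its doxorubicin libraries ran from 0 to 0.316 CPM, so the groups overlapped at 0. In cultures given histidine it was not called, with 13 reads in the histidine group and 95 with both (adjusted p = 0.109, edgeR). On log2(FPKM + 1), with genes of mean FPKM of at least 1 only, 9 of the list fell and 1 rose. Without doxorubicin replicate 4, 10 fell and 6 rose.

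**Figure D5:**
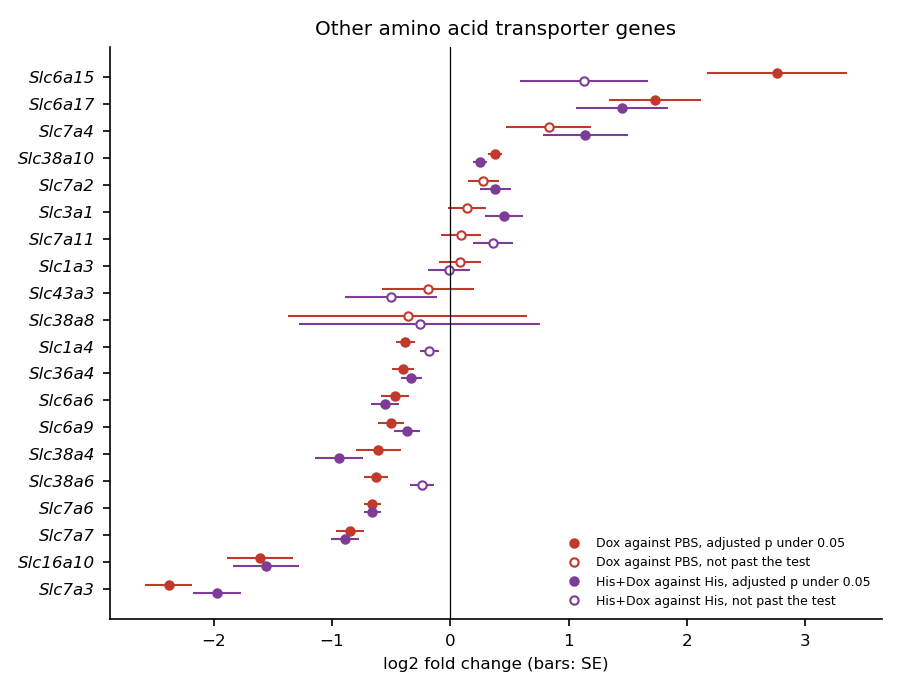
Log2 fold change (x axis, bars are the SE) of 20 other amino acid transporter genes for doxorubicin against PBS and for both compounds against histidine; filled points passed the test. Slc1a2, with 0 PBS reads, is left out; Slc7a3 lies farthest left (-2.38 against PBS) and Slc6a15 farthest right (2.76).

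Among 7 measured lysosomal carriers of amino acids and histidine-containing peptides, 1 fell and 0 rose, beside 21.5% and 21.7% of all genes. That gene was Slc15a3, a histidine and peptide carrier, with 24.1 ± 1.97 CPM with PBS and 1.3 ± 0.306 CPM with doxorubicin (log2 fold change -4.21 ± 0.22, adjusted p = 8.25e-12, edgeR, n = 5 per group). Its relative Slc15a4 was at -0.12 (adjusted p = 0.213), Slc36a1 at -0.16 and the cationic exporter Slc66a1 at -0.15. Slc15a3 is abundant in macrophages, and Csf1r, a macrophage receptor, went from 143 ± 3.1 to 1.76 ± 0.367 CPM. The part of that shift in Slc15a3 was not tested.

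Of 32 measured genes that signal amino acid supply to mTORC1, 7 rose and 6 fell (median 0.03, beside 0.05 for all genes). These counts were near the shares over all genes, 21.7% higher and 21.5% lower. Rraga, one of the Rag GTPases, rose by 0.49 (adjusted p = 1.78e-05), and Sesn2, a leucine sensor induced by stress, rose by 0.66. Its relative Sesn1 fell by 0.69, Fnip2 by 0.75, Depdc5 by 0.34 and Lamtor3 by 0.27. The call of Depdc5 was lost with library totals as the scaling (adjusted p = 0.0517) and in the 3 limma fits on FPKM (adjusted p = 0.0511 to 0.0571). With library totals, 10 of the list rose and 3 fell, and without doxorubicin replicate 4, 10 rose and 6 fell.

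Of 18 measured regulators of these transporters, 6 rose and 3 fell (median 0.18), beside 21.7% of all genes higher and 21.5% lower. Sgk1, a kinase that raises the activity of several carriers, fell by 1.18 ± 0.16 (adjusted p = 3.95e-06, edgeR, n = 5 per group), and Myc fell by 0.64. Atf4 fell by 0.26 (283 ± 11.7 to 236 ± 41.6 CPM, adjusted p = 0.0253), a call that leaving out PBS replicate 1, or any doxorubicin library but replicate 4, ended (highest adjusted p = 0.072). Epas1 rose by 0.45 and Yap1 by 0.25. The count that rose was 3 without PBS replicate 2, 4 or 5, and 4 without doxorubicin replicate 4. It was also 3, with 2 that fell, when only the PBS and doxorubicin libraries were fitted.

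In cultures given histidine, doxorubicin gave 8 lower and 5 higher among the other transporters, 1 and 0 among the lysosomal carriers, 6 and 11 among the sensing genes, and 3 and 4 among the regulators. Of all genes, 20.3% were called lower and 19.9% higher in that comparison. Histidine alone, or added to doxorubicin, called 0 genes of these 4 lists by edgeR.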

How the data were processed

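The deposited table held the authors' raw read counts per gene, as whole numbers, beside their FPKM values, per the file headers. Per the submitters' processing notes, Trimmomatic and the build mRatBN7.2 were used; for aligner, counter and annotation, the names are not given in the sources used. Per the labels' protocols, the library procedure does not mark strand; no other gene of the table overlapped any of the 10 (0 in all). Counts were filtered with filterByExpr (15449 of 15503 genes; all 10 passed), scaled by TMM and tested with edgeR 4.0.16 (quasi-likelihood F test, 1 fit of 4 groups and 20 libraries, no block, Benjamini-Hochberg threshold 0.05). CPM are counts per 1000000 of the TMM-scaled library. Alternatives used DESeq2 1.42.0, limma 3.58.1 on log2(FPKM + 1) or log2(FPKM + 0.1), other scaling and filters, and each replicate left out. FPKM ratios were tested by exact permutation of log2 values. Over all genes, deviations of same-numbered libraries from their group means correlated weakly, from -0.0766 to 0.193, and 2 of 30 passed 0.1. This cannot exclude that same-numbered libraries share a preparation. The edgeR step was tested on simulated data. Symbols came from the table or RefSeq. Members and lists were chosen with earlier results of these data known. Named genes were all 10 members, and of each of 4 lists the 4 with the smallest p for doxorubicin against PBS plus up to 2 that moved against most calls. List genes that matched no symbol were not analysed here.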

Additional observations from a re-analysis of the deposited data

Results flagged for a closer look

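Of 52 sets of 5 libraries examined (10 transporters by 4 groups, and 3 ratios by 4 groups), 5 held a library far from its group by Dixon's test; chance flags about 1 in 20. Slc7a8 was at 23.2 CPM in PBS replicate 5, with the others at 20.1 to 20.8. Slc43a2 was at 46.4 CPM in histidine replicate 3 (others 34 to 36.1) and at 34.1 CPM in replicate 2 of the group with both compounds (others 39.5 to 41.3). Slc43a1 was at 8.59 CPM in doxorubicin replicate 4 (others 4.89 to 5.35), the library that stood apart on the second principal component. Slc38a3 was at 6.93 CPM in replicate 5 of the group with both compounds (others 4.94 to 5.4).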

How the results depend on the processing

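The number of the 10 genes called ran from 8 to 9 for doxorubicin against PBS and was 8 for doxorubicin in cultures given histidine, and 0 for histidine alone, histidine added to doxorubicin and the interaction, over every alternative run. Those higher with doxorubicin numbered 2, or 1 where Slc43a2 lost its call. Over all genes, the main edgeR fit called 0 in the 3 comparisons that test histidine, where DESeq2 called 5, 22 and 17. With library totals as the scaling, edgeR called 2 genes for histidine added to doxorubicin. No called value changed sign. Whether same-numbered libraries share a preparation was not settled. With the replicate number as a block, the counts of calls stayed within those limits. For the ratios, the replicate block left an exact sign-flip test whose smallest p is 0.0625, so none could pass: the log2 differences for doxorubicin against PBS were -0.71 (Slc7a5 to Slc3a2), -1.19 (Slc7a8 to Slc7a5) and -0.63 (Slc38a1 to Slc38a2), and in cultures given histidine -0.52, -1.19 and -0.45, each with an adjusted p of 0.125. With 1 library left out, the Slc7a5 to Slc3a2 difference for doxorubicin against PBS ran from -0.78 to -0.6. That of Slc7a8 to Slc7a5 ran from -1.45 to -0.92, and that of Slc38a1 to Slc38a2 from -0.71 to -0.57. For histidine against PBS, the Slc7a5 to Slc3a2 difference ran from -0.09 to -0.06 (adjusted p 0.0408 to 0.131, exact permutation). The Slc38a1 to Slc38a2 difference for histidine added to doxorubicin ran from 0.15 to 0.25 (adjusted p 0.0408 to 0.202) and was 0.25 without doxorubicin replicate 4; the cause was not tested. Depth limits Slc38a3 most, with as few as 8 reads in a PBS library.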
